A study of Mus musculus with 19 samples.

Results

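Kupffer cells are the resident macrophages of the liver, and 8 genes of them that lie outside the usual macrophage programs were examined here: En2, Kcna2, Rims4, Klhl29, Fam84a (also called Lratd1), Cnpy1, Slc45a3 and Pcolce2. They were chosen because their values in these libraries were much lower in monocyte-derived than in embryo-derived Kupffer cells, so that difference is given as a description, with no test. All 8 were found among the 33919 rows of the table, matched by symbol, and all 8 passed the filter on low values. All but Slc45a3 and Pcolce2 passed it only through the embryo-derived groups, where they are high. The RNA came from livers of female C57BL/6 mice of wild type, whose age is not given in the sources used here. MCD_MoKCs (n = 7) are monocyte-derived Kupffer cells, sorted as CLEC2 positive and TIMD4 negative after 4 weeks of MCD diet, a diet lacking methionine and choline that is used to provoke steatohepatitis in mice. MCD_EmKCs (n = 6) are embryo-derived Kupffer cells, sorted as CLEC2 positive and TIMD4 positive after the same diet. Chow_EmKCs (n = 6) are embryo-derived Kupffer cells from mice on chow, and no monocyte-derived cells from mice on chow were analysed here. Origin was thus assigned by surface TIMD4 and not by tracing the lineage.

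Embryo-derived Kupffer cells settle in the liver before birth and renew themselves there, whereas monocyte-derived ones enter from the blood when the niche empties, and they take on many but not all features of the cells they replace. The 8 genes belong to no common pathway. En2 encodes an engrailed homeobox transcription factor known for patterning the midbrain and hindbrain, and Cnpy1 is a canopy family gene whose zebrafish counterpart promotes fibroblast growth factor signalling at the midbrain-hindbrain boundary. Kcna2 encodes a voltage-gated potassium channel subunit of neurons, and Rims4 a small member of the RIM family, whose larger proteins organise vesicle release at synapses. Klhl29 belongs to the kelch-like family, many of whose proteins bring substrates to a cullin ubiquitin ligase. Fam84a encodes a protein with a domain related to lecithin retinol acyltransferase, Slc45a3 a solute carrier known from prostate, and Pcolce2 a secreted protein that enhances the removal of the C-terminal propeptide from procollagen.

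The genes lie on 6 chromosomes of the mouse build mm10, as annotated by GENCODE M21, and all are protein-coding. En2 (ENSMUSG00000039095) spans chr5:28165694-28172166 on the plus strand, and Cnpy1 (ENSMUSG00000044681) spans chr5:28200819-28245806 on the minus strand, 28.7 kb away. Klhl29 (ENSMUSG00000020627) at chr12:5077472-5375682 and Fam84a (ENSMUSG00000020607) at chr12:14146830-14152054 are both on the minus strand. Kcna2 (ENSMUSG00000040724) lies at chr3:107101146-107115005 on the plus strand and Rims4 (ENSMUSG00000035226) at chr2:163859751-163918683 on the minus strand. Slc45a3 (ENSMUSG00000026435) lies at chr1:131962967-131982969 and Pcolce2 (ENSMUSG00000015354) at chr9:95637601-95698096, both on the plus strand. Slc45a3 shares 481 exonic bases with Gm29103, a transcript on the same strand, and Pcolce2 overlaps Gm16126 and Gm16127 on the opposite strand without sharing exonic bases. Rims4 and Kcnk15 are neighbours on opposite strands, 5 bases apart. Whether the counting used strand is not given in the sources used here, so reads of such partners may not be told apart.

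Promoter windows, from 250 bases before to 50 bases after a start, were available for 6 of the 8 genes in a RefSeq table of build GRCm38.p6. Cnpy1 and Slc45a3 have 2 starts each, which gives 8 windows. En2 and Rims4 have no entry. The windows differed in CpG content, and 4 of 8 had at least 60% GC together with an observed-over-expected CpG ratio of at least 0.6, against 24.7% of all 32851 windows. These 4 were the windows of Kcna2, Klhl29, Fam84a and the inner start of Cnpy1, with ratios of 0.932, 0.903, 0.731 and 1.05, against a median of 0.384 over all windows. The 100 bases before 3 of these 4 starts, and before the outer Cnpy1 start with a ratio of 0.285, are shown for comparison, 5′ to 3′ on the gene's strand with each CpG in capitals.
Klhl29, chr12.0:5375683-5375782, minus strand: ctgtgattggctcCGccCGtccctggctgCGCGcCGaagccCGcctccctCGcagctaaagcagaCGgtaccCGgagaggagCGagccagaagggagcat
Fam84a, chr12.0:14152039-14152138, minus strand: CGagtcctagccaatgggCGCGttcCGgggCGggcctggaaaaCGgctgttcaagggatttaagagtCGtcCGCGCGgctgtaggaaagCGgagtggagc
Cnpy1 outer start, chr5.0:28245789-28245888, minus strand: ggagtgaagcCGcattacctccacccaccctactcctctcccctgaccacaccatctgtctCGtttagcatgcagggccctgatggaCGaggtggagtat
Cnpy1 inner start, chr5.0:28210169-28210268, minus strand: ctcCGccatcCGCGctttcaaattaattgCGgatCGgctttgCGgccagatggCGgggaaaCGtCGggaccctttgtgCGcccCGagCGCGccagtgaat
The outer Cnpy1 start has 3 CpG in these 100 bases and the inner one has 13, while Klhl29 has 10 and Fam84a has 11. Each window was searched on both strands for 6 short motifs, namely GAGGAAGT for PU.1, TGCTGAC for MAF, CACGTG for the E-box, CGTGGGAA for RBPJ, AGGTCA for nuclear receptors and TATAAA for the TATA box, of which none contains another, though the E-box and RBPJ motifs share the letters CGTG. Matches were found in the window of the inner Slc45a3 start and in none of the other 7. That window holds AGGTCA, 115 bases before the start, and TATAAA, 148 bases before it, letters that 16.3% and 13.6% of all windows also hold. The stretch with both matches is shown with these letters in capitals.
Slc45a3 inner start, chr1.0:131970441-131970519, plus strand: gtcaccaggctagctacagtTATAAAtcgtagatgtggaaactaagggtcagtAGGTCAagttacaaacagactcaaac
The other 4 motifs are held by 0.734% to 7.15% of all windows, and gene counts do not show which start was used in these cells.

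The libraries held 11642240 to 30983487 reads, and 14643 to 16847 genes had a read in each. Values are normalised reads, that is reads divided by 1 size factor per library, with 1 read worth 0.575 to 1.66 normalised reads. A value of 0 allows up to 3 reads, or 1.73 to 4.99 normalised reads depending on the library, and this limit covers counting error only. The labels do not say whether libraries of a group came from different mice, so p-values measure the spread between these libraries, which may be technical. The numbers that follow the group names in the table's header are 17 to 33 and 37 to 48, each run holds libraries of all 3 groups, and what the numbers stand for is not given in the sources used here. Of the sort genes, Timd4 matched the gates in direction. Clec1b was at 73.4% of the MCD_EmKCs mean in MCD_MoKCs, although both MCD groups were sorted as CLEC2 positive. Timd4 averaged 400 ± 161 normalised reads in MCD_MoKCs, 7491 ± 720 in MCD_EmKCs and 10586 ± 2097 in Chow_EmKCs (SD), and Clec1b, which encodes CLEC2, averaged 5140 ± 1068, 7000 ± 778 and 6605 ± 804 in the same groups. MCD_MoKCs libraries thus retained Timd4 reads at 5.34% of the MCD_EmKCs mean. Clec4f, the lectin that defines Kupffer cells, was at 13.9% of it.

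The 8 genes differed in how far they were retained in monocyte-derived cells. Slc45a3 and Pcolce2 were at 12.8% and 10.5% of the MCD_EmKCs mean in MCD_MoKCs and had reads in all 7 of those libraries, so the description "nearly confined to embryo-derived cells" does not hold for this pair. The 6 rarer genes were at 1.34% to 5.54%. Their sum was 101 ± 101 normalised reads in MCD_MoKCs, 3238 ± 1697 in MCD_EmKCs and 2754 ± 768 in Chow_EmKCs, while the sum of all 8 was 953 ± 266, 10388 ± 1379 and 9429 ± 627. The summed level in MCD_MoKCs was 9.18% of that in MCD_EmKCs, with 8.63% among libraries numbered up to 33 and 9.69% among those from 37. Against Chow_EmKCs it was 10.1%, with 10.6% and 9.54% within the same runs of numbers.

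**Figure D1:**
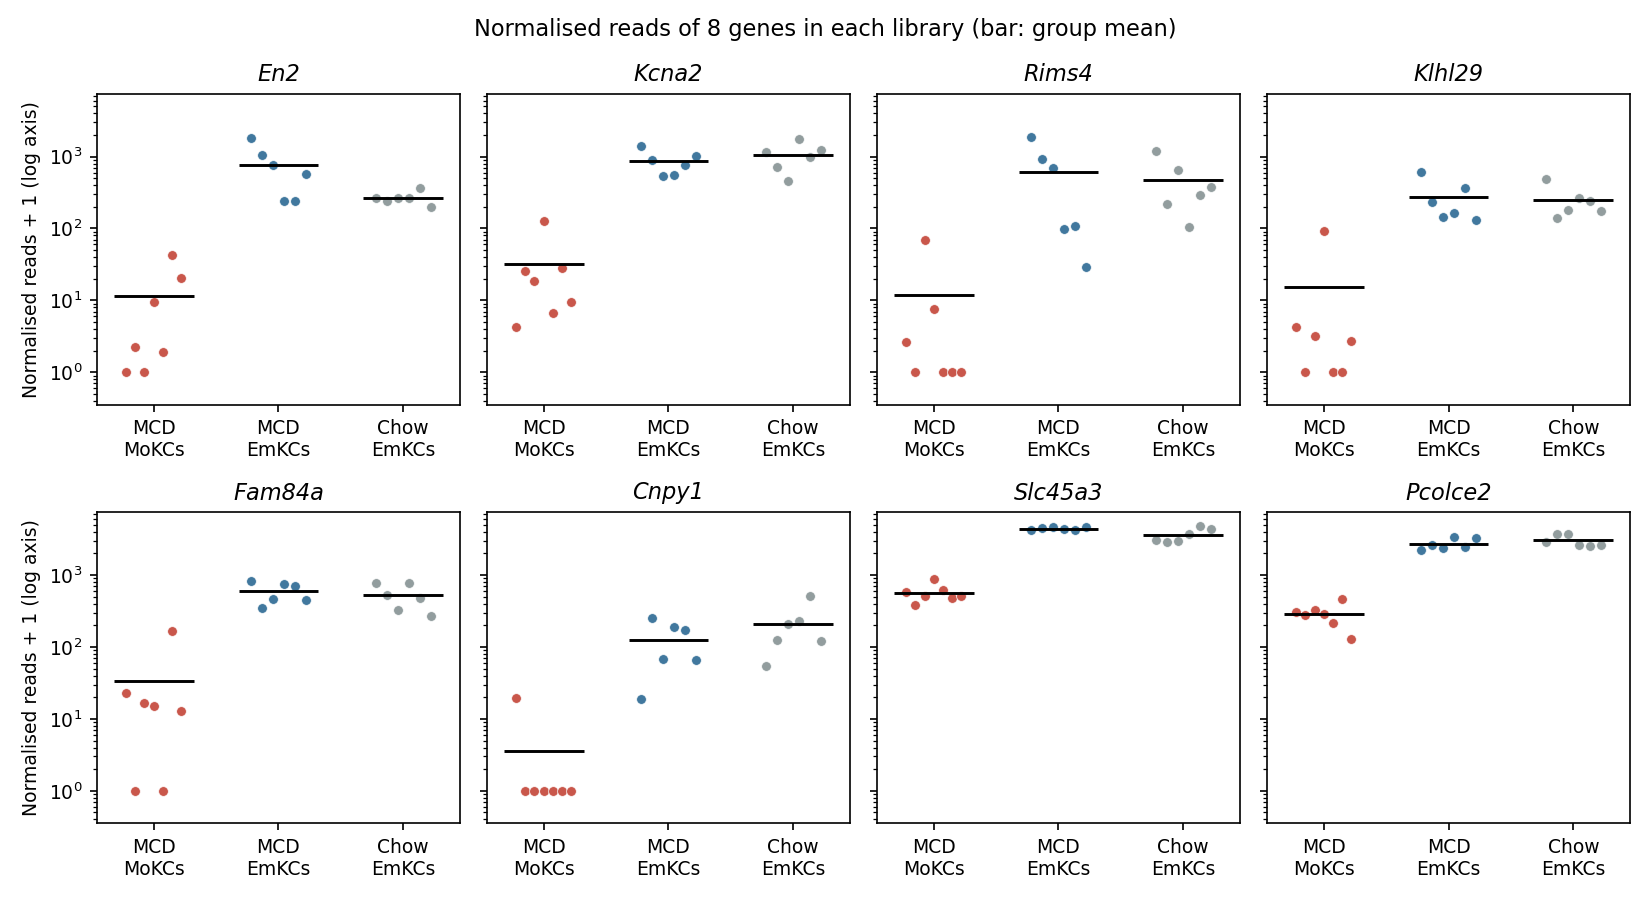
Normalised reads plus 1 on a log axis for each of the 8 genes, with a point for each library, a bar for the group mean, and MCD_MoKCs (n = 7), MCD_EmKCs (n = 6) and Chow_EmKCs (n = 6) left to right. Slc45a3 and Pcolce2 form tight groups, whereas the other 6 genes spread over a wider range in MCD_MoKCs, with 5 of them at 0 in some of those libraries, and Rims4 spreads widely within both EmKC groups.

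The pair of developmental genes was nearly absent from monocyte-derived cells. En2 had 0, 1.28, 0, 8.55, 0.939, 42.3 and 19.6 normalised reads in MCD_MoKCs libraries 1 to 7. In MCD_EmKCs libraries 1 to 6 it had 1787, 1043, 764, 239, 240 and 567.7, and in Chow_EmKCs libraries 1 to 6 it had 261, 241, 265, 265, 368 and 198. No MCD_MoKCs library reached any EmKC library. The level in MCD_MoKCs was 1.34% of MCD_EmKCs and 3.90% of Chow_EmKCs, and without MCD_MoKCs 6, which held 58.2% of the group's sum, it was 0.653% of MCD_EmKCs. Within the runs of library numbers the share of MCD_EmKCs was 0.180% up to 33 and 8.87% from 37.

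Cnpy1, the neighbour of En2, had 18.3 normalised reads, from 11 reads, in MCD_MoKCs 1 and 0 in the other 6 MCD_MoKCs libraries. It had 18.1, 248, 66.6, 187, 171 and 64.5 in MCD_EmKCs and 53.4, 123, 205, 227, 512 and 120 in Chow_EmKCs. That MCD_MoKCs library overlapped the lowest MCD_EmKCs library, and the other 6 lay below every EmKC library. MCD_EmKCs 1, where Cnpy1 was lowest among the EmKC libraries, had the highest En2 value of all 19 libraries, so the levels of the neighbouring genes did not run together there.

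Kcna2 was detected in every MCD_MoKCs library but at a low level. It had 3.32, 24.3, 17.8, 127, 5.63, 27.0 and 8.63 normalised reads in MCD_MoKCs, against 1388, 890, 533, 547, 768 and 1009 in MCD_EmKCs and 1149, 707, 461, 1728, 971 and 1219 in Chow_EmKCs. The groups did not overlap, and MCD_MoKCs stood at 3.57% of MCD_EmKCs, or 1.69% without MCD_MoKCs 4.

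Rims4 varied more between libraries of each EmKC group than any other of the 8, with a coefficient of variation of 115% in MCD_EmKCs and 84.1% in Chow_EmKCs. It had 1.66, 0, 67.8, 6.65, 0, 0 and 0 normalised reads in MCD_MoKCs. In MCD_EmKCs it had 1865, 919, 696, 97.7, 106 and 28, and in Chow_EmKCs 1184, 217, 643, 104, 293 and 374. MCD_MoKCs 3 held 89.1% of its group's sum and lay above MCD_EmKCs 6, so the groups overlapped. The highest EmKC library had 66.6 times the value of the lowest.

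Klhl29 and Fam84a, both on chromosome 12 but far apart, each had 1 MCD_MoKCs library that carried most of the group's signal. Klhl29 had 3.32, 0, 2.22, 92.1, 0, 0 and 1.73 normalised reads in MCD_MoKCs, against 612, 235, 142, 162, 361 and 130 in MCD_EmKCs and 489, 140, 180, 261, 244 and 175 in Chow_EmKCs. Without MCD_MoKCs 4 its share of the MCD_EmKCs mean was 0.443%, against 5.19% with it. Fam84a had 21.6, 0, 15.5, 14.2, 0, 166 and 12.1 in MCD_MoKCs, against 816, 351, 465.98, 762, 693 and 454 in MCD_EmKCs and 766, 534, 323, 776, 481 and 267 in Chow_EmKCs. Without MCD_MoKCs 6 its share was 1.79%, against 5.54% with it. For neither gene did an MCD_MoKCs library reach an EmKC library.

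Slc45a3 and Pcolce2 had the highest levels of the 8 in all 3 groups. Slc45a3 had 583, 381, 511, 879, 625.2, 483 and 511 normalised reads in MCD_MoKCs, against 4185, 4490, 4658, 4339, 4223 and 4729 in MCD_EmKCs and 3037, 2891, 2968, 3711, 4793 and 4435 in Chow_EmKCs. Pcolce2 had 301, 277, 321, 283, 211, 469 and 128 in MCD_MoKCs, against 2252, 2615, 2358, 3338, 2453 and 3259 in MCD_EmKCs and 2861, 3715, 3774, 2662, 2555 and 2645 in Chow_EmKCs. Each was low in all 7 MCD_MoKCs libraries and high in all 12 EmKC libraries, with no overlap. In bulk RNA, fewer cells expressing a gene and less RNA per cell cannot be told apart.

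**Figure D2:**
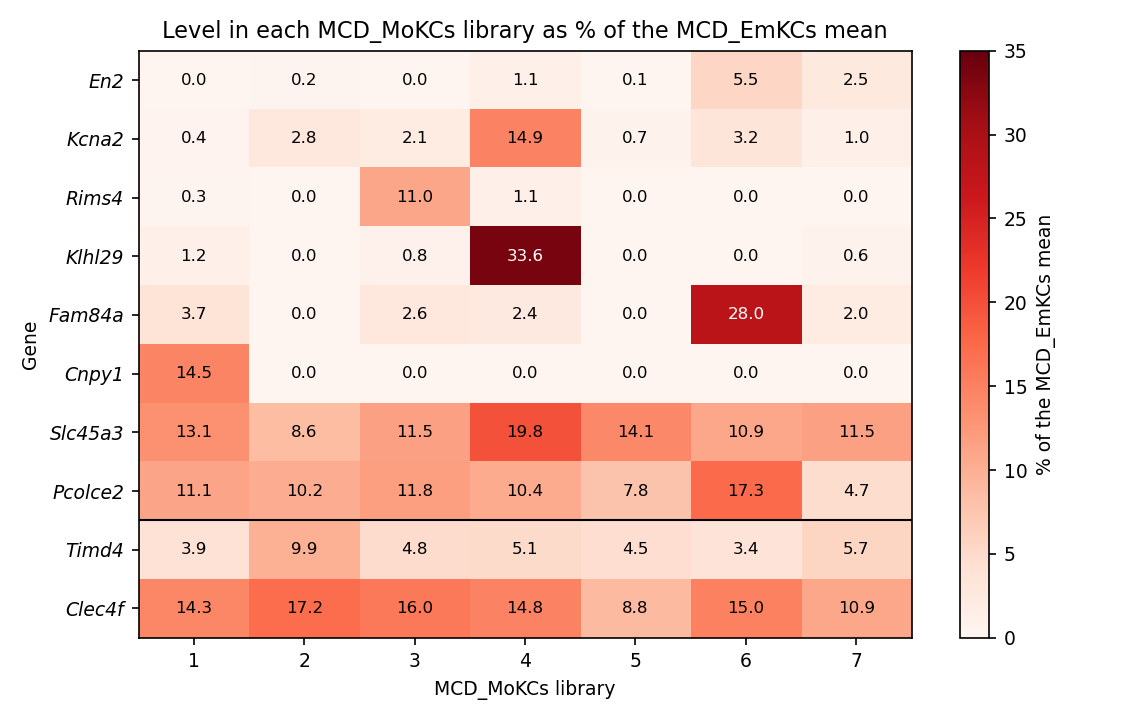
Level of each gene in each of the 7 MCD_MoKCs libraries as a percent of its mean in the 6 MCD_EmKCs libraries, with Timd4 and Clec4f below the line. The highest values of the 6 rarer genes fall in libraries 1, 3, 4 and 6 (Klhl29 33.6% in library 4, Fam84a 28% in library 6, Kcna2 14.9% in library 4, Cnpy1 14.5% in library 1, Rims4 11% in library 3, En2 5.47% in library 6), while Timd4 ranges from 3.45% to 9.92%.

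No MCD_MoKCs library was high for all of the rarer genes. Reads for 5, 2, 4, 5, 2, 3 and 4 of the 6 were present in MCD_MoKCs libraries 1 to 7. The library with the most Timd4, MCD_MoKCs 2 with 743 normalised reads, had reads for 2 of the 6, and the library with the least, MCD_MoKCs 6 with 258, held the highest En2 and Fam84a values of the group. Within the runs of library numbers, the MCD_MoKCs share of the MCD_EmKCs mean was 3.81% up to 33 and 2.30% from 37 for Kcna2, 1.31% and 0% for Rims4, and 5.92% and 0.396% for Klhl29. It was 1.89% and 13.95% for Fam84a and 3.29% and 0% for Cnpy1, with 2 MCD_MoKCs libraries, 6 and 7, in the run from 37. For Slc45a3 it was 13.4% and 11.2%, and for Pcolce2 11.6% and 9.90%, so these stayed close to their pooled values. The part of embryo-derived cells in these reads was not tested.

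Of the 8 genes, 6 had every MCD_MoKCs library below every EmKC library, as did 1.35% of the 14875 genes tested, and since the genes were chosen on these values nothing is read from that count. Among the 11105 genes averaging at least 50 normalised reads in both EmKC groups, 16 were at or below 5% of both means in MCD_MoKCs, and 4 of those were En2, Kcna2, Rims4 and Cnpy1. At 10% there were 42 genes, including all 6 rarer ones. Ranked by the higher of the 2 percents, Cnpy1 stood 4th from the lowest, Rims4 6th, Kcna2 11th, En2 13th, Klhl29 22nd, Fam84a 26th, Pcolce2 48th and Slc45a3 81st.

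Per kilobase of exon, which allows levels of different genes to be compared, the order of mean levels in MCD_EmKCs was Slc45a3 at 1245 normalised reads per kb, Pcolce2 at 587, En2 at 219, Fam84a at 137, Rims4 at 125, Kcna2 at 71.9, Klhl29 at 38.9 and Cnpy1 at 21.5. In Chow_EmKCs it was Slc45a3 at 1021, Pcolce2 at 656, Fam84a at 122, Rims4 at 94.6, Kcna2 at 87.3, En2 at 75.3, Cnpy1 at 35.3 and Klhl29 at 35.2. Slc45a3 and Pcolce2 headed both orders and did not trade places, whereas from En2 down to Cnpy1 most neighbouring means lay closer together than the spread between libraries. En2 thus stood 3rd in MCD_EmKCs and 6th in Chow_EmKCs. In MCD_MoKCs, Slc45a3 at 159 and Pcolce2 at 61.5 per kb were again first, and the others were between 0.445 and 7.60 per kb.

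The genes were not chosen on the difference between diets in embryo-derived cells, but their choice used the values of both EmKC groups and favours genes high on both diets, so the count called here is not independent of it. None of the 8 was called by limma at a Benjamini-Hochberg adjusted p under 0.05 in MCD_EmKCs against Chow_EmKCs, and none had an unadjusted p under 0.05, while 607 of 14875 genes (4.08%) were called. DESeq2 and edgeR also called none of the 8, and at an unadjusted p under 0.05 edgeR had 1, En2, and DESeq2 had 0. En2 had the largest difference, with 773 ± 585 normalised reads in MCD_EmKCs and 266 ± 55.8 in Chow_EmKCs (SD, n = 6 each), a log2 fold change of 1.19 (SE 0.77, 95% interval −0.40 to 2.78, limma adjusted p = 0.486). Slc45a3 averaged 4437 ± 226 in MCD_EmKCs and 3639 ± 818 in Chow_EmKCs, a log2 fold change of 0.31 (95% interval −0.05 to 0.68, limma adjusted p = 0.406). Cnpy1 averaged 126 ± 89.2 in MCD_EmKCs and 207 ± 162 in Chow_EmKCs, a log2 fold change of −0.81 (95% interval −2.52 to 0.91, limma adjusted p = 0.693).

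The remaining 5 genes were not called either. Pcolce2 averaged 2713 ± 470 in MCD_EmKCs and 3035 ± 559 in Chow_EmKCs, and its interval of −0.63 to 0.31 was the narrowest among these 5. Kcna2 averaged 856 ± 321 in MCD_EmKCs and 1039 ± 440 in Chow_EmKCs, with an interval of −1.39 to 0.91. Rims4 averaged 619 ± 712 in MCD_EmKCs and 469 ± 395 in Chow_EmKCs, yet its log2 fold change was −0.40, with an interval of −2.53 to 1.73, so its means and its log-scale difference had opposite signs. Klhl29 averaged 274 ± 186 in MCD_EmKCs and 248 ± 126 in Chow_EmKCs, with an interval of −1.68 to 1.74, and Fam84a averaged 591 ± 191 in MCD_EmKCs and 525 ± 215 in Chow_EmKCs, with an interval of −1.55 to 1.98. For the 6 rarer genes changes of 2-fold or more in either direction lie within these intervals, with the exception of a 2-fold fall in En2 and a 2-fold rise in Kcna2 and in Cnpy1.

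The shared estimate of the spread included MCD_MoKCs libraries near 0. A fit of the 12 EmKC libraries alone, added after the data had been seen, gave En2 the same log2 fold change of 1.19 with an SE of 0.41 (95% interval 0.33 to 2.05, limma unadjusted p = 0.00899 and adjusted p = 0.128, a fit across all genes and not an exact test). It called none of the 8 genes and 3.87% of all genes.

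**Figure D3:**
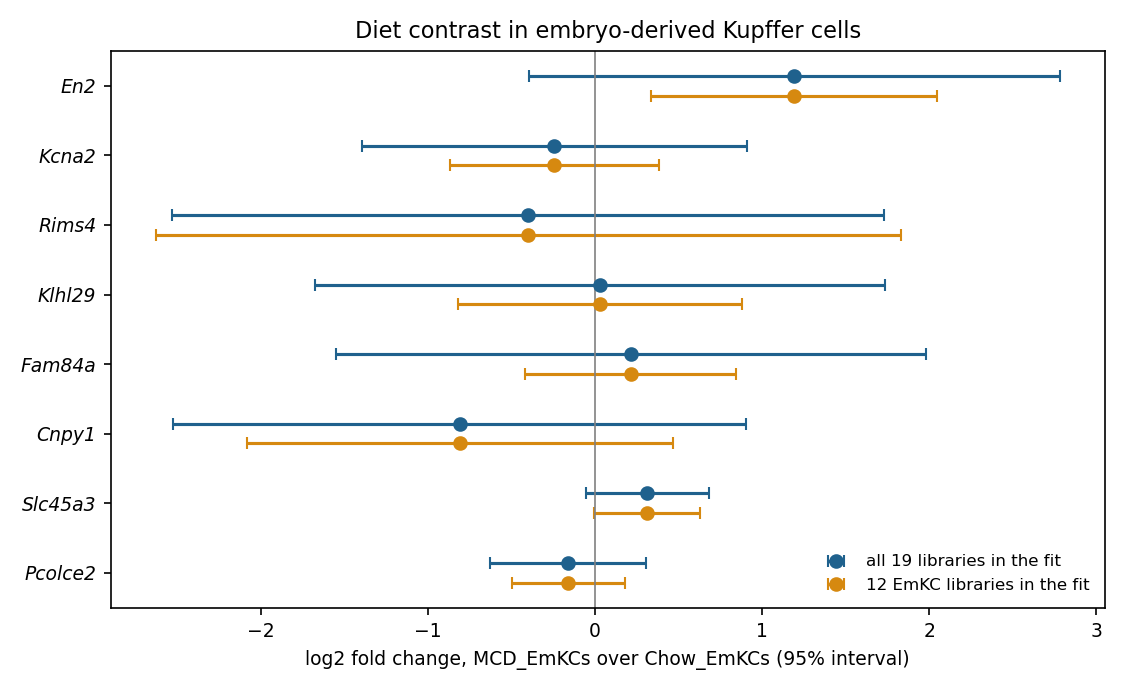
Log2 fold change of MCD_EmKCs over Chow_EmKCs with its 95% interval for each of the 8 genes, from limma with all 19 libraries (blue) and with the 12 EmKC libraries alone (orange). In the fit of all libraries every interval includes 0, and in the EmKC fit the En2 interval, 0.33 to 2.05, does not.

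En2 and Rims4 split MCD_EmKCs by library number. En2 was 239 to 567.7 normalised reads in the 3 libraries from 37 and 764 to 1787 in the 3 up to 33. Rims4 was 28 to 106 in the 3 libraries from 37 and 696 to 1865 in the 3 up to 33. Neither gene's ranges overlapped between the sets. The log2 difference from 37 against up to 33 was −1.82 for En2 (SE 0.76, limma adjusted p = 0.447) and −3.98 for Rims4 (SE 1.18, limma adjusted p = 0.255), and neither passed the threshold, which 0.0134% of all genes did. Slc45a3 and Pcolce2 likewise did not overlap between the sets in Chow_EmKCs. Slc45a3 was 2891 to 3037 up to 33 and 3711 to 4793 from 37 (limma adjusted p = 0.431). Pcolce2 was 2861 to 3774 up to 33 and 2555 to 2662 from 37 (limma adjusted p = 0.776). The share of all genes with such a split was not counted, so nothing about the 8 genes is read from these splits. The diet difference was accordingly uneven between the sets, at 2.14 up to 33 and 0.25 from 37 for En2, and at 0.95 and −1.75 for Rims4. It was 0.58 and 0.05 for Slc45a3, and −0.51 and 0.19 for Pcolce2. Tested as an interaction, that unevenness was not called for any of the 8 genes (limma adjusted p = 0.696 for En2 and 0.721 for Rims4, with 0% of all genes called). The part of the library sets in the En2 difference between diets was not tested beyond these values.

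**Figure D4:**
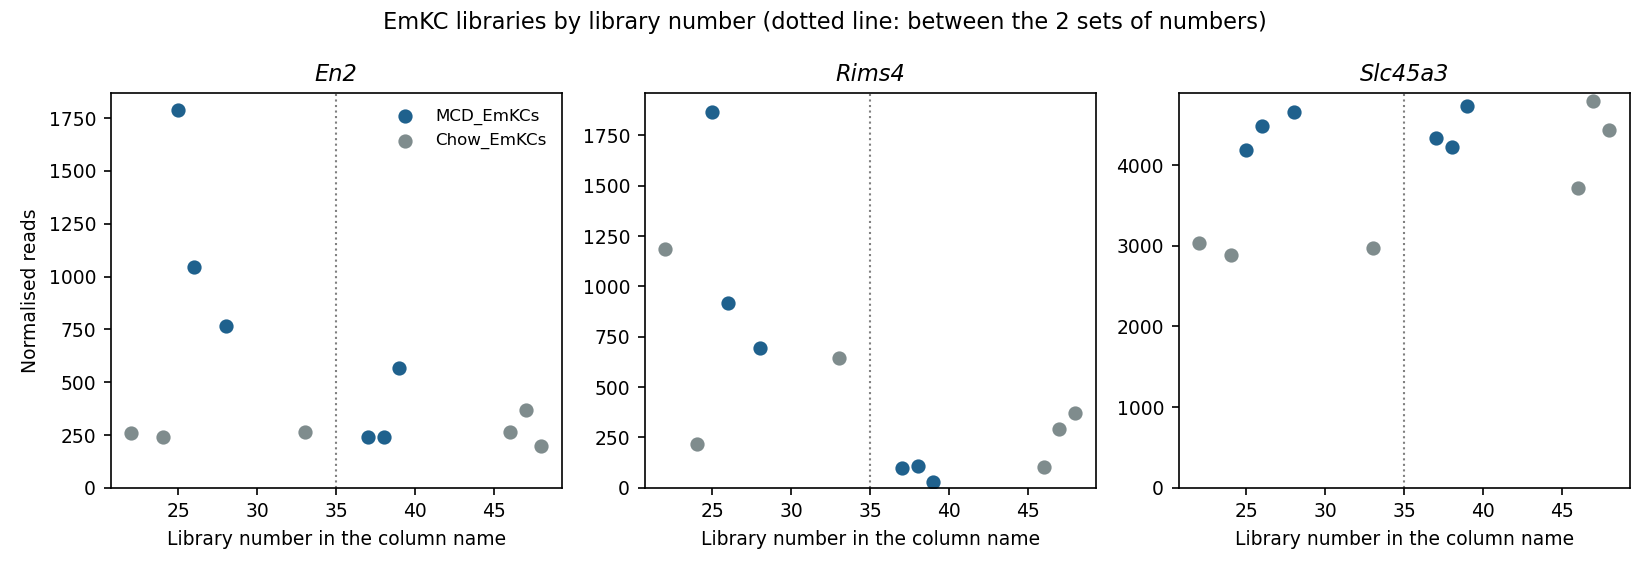
Normalised reads of En2, Rims4 and Slc45a3 in the 6 MCD_EmKCs and 6 Chow_EmKCs libraries, by the library number in the column name, with a dotted line between the runs of numbers. En2 in MCD_EmKCs is 764 to 1787 left of the line and 239 to 567.7 right of it, and Rims4 in MCD_EmKCs is 696 to 1865 left and 28 to 106 right. Slc45a3 in Chow_EmKCs is 2891 to 3037 left and 3711 to 4793 right.

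The genes varied among themselves in spread. The coefficient of variation between libraries was 5.10% in MCD_EmKCs and 22.5% in Chow_EmKCs for Slc45a3, and 17.3% and 18.4% for Pcolce2. For Cnpy1 it was 70.7% and 78.5%. For En2 it was 75.7% in MCD_EmKCs and 20.9% in Chow_EmKCs. The median over all tested genes was 41.8% in MCD_EmKCs and 38.7% in Chow_EmKCs.

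Genes next to the 8 on the chromosome mostly did not follow them. The 8 genes themselves were left out of the counts, so En2 and Cnpy1, each the nearest neighbour of the other, are not in them. Of 28 other neighbouring protein-coding genes, among the nearest 2 on each side, 19 were tested. In MCD_MoKCs against MCD_EmKCs, 1 was called higher and 2 lower, where 5.64% of all genes were called higher and 4.9% lower. The median log2 fold change was −0.03 over the tested neighbours and 0.02 over all genes. Against Chow_EmKCs, 2 neighbours were called higher and 2 lower, where 8.68% of all genes were called higher and 8.08% lower.

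Paqr9, a progestin and adipoQ receptor family gene 69.6 kb from Pcolce2, fell with it, averaging 582 normalised reads in MCD_MoKCs, 3809 in MCD_EmKCs and 2097 in Chow_EmKCs. Its log2 fold change was −2.39 against MCD_EmKCs (limma adjusted p = 1.21e-04) and −1.93 against Chow_EmKCs (limma adjusted p = 6.66e-04). Kcna3, a channel subunit of the same family 63.1 kb from Kcna2, ran the other way, averaging 277 ± 56.5 in MCD_MoKCs and 52.6 ± 75.6 in MCD_EmKCs, with no read in the 6 Chow_EmKCs libraries. It was called higher in MCD_MoKCs against MCD_EmKCs (log2 fold change 3.97, SE 0.87, limma adjusted p = 0.00279). Nucks1, a chromatin-associated protein gene 26.6 kb from Slc45a3, averaged 498 in MCD_MoKCs and 734 in MCD_EmKCs (log2 fold change −0.58, limma adjusted p = 0.0483) and was not called against Chow_EmKCs. Trpc1, a cation channel gene 7.0 kb from Pcolce2, averaged 3.39 in MCD_MoKCs, 40.2 in MCD_EmKCs and 37.9 in Chow_EmKCs and was not called (limma adjusted p = 0.223 against MCD_EmKCs and 0.0789 against Chow_EmKCs). Apob, an apolipoprotein gene 2602 kb from Klhl29, was called lower in MCD_MoKCs than in Chow_EmKCs, at 6.29 and 86.7, and hepatocyte markers fell in that comparison too, with 8 of 10 called lower. Around En2 and Cnpy1, Rbm33 averaged 716 in MCD_MoKCs, 638 in MCD_EmKCs and 415 in Chow_EmKCs and was not called. Insig1, a regulator of sterol synthesis, was not called between the MCD groups, but was higher than in Chow_EmKCs in both MCD_MoKCs (1428 against 567, limma adjusted p = 8.19e-05) and MCD_EmKCs (1150 against 567, limma adjusted p = 0.0126). Ywhab beside Rims4 averaged 5014 in MCD_MoKCs, 4902 in MCD_EmKCs and 4888 in Chow_EmKCs.

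**Figure D5:**
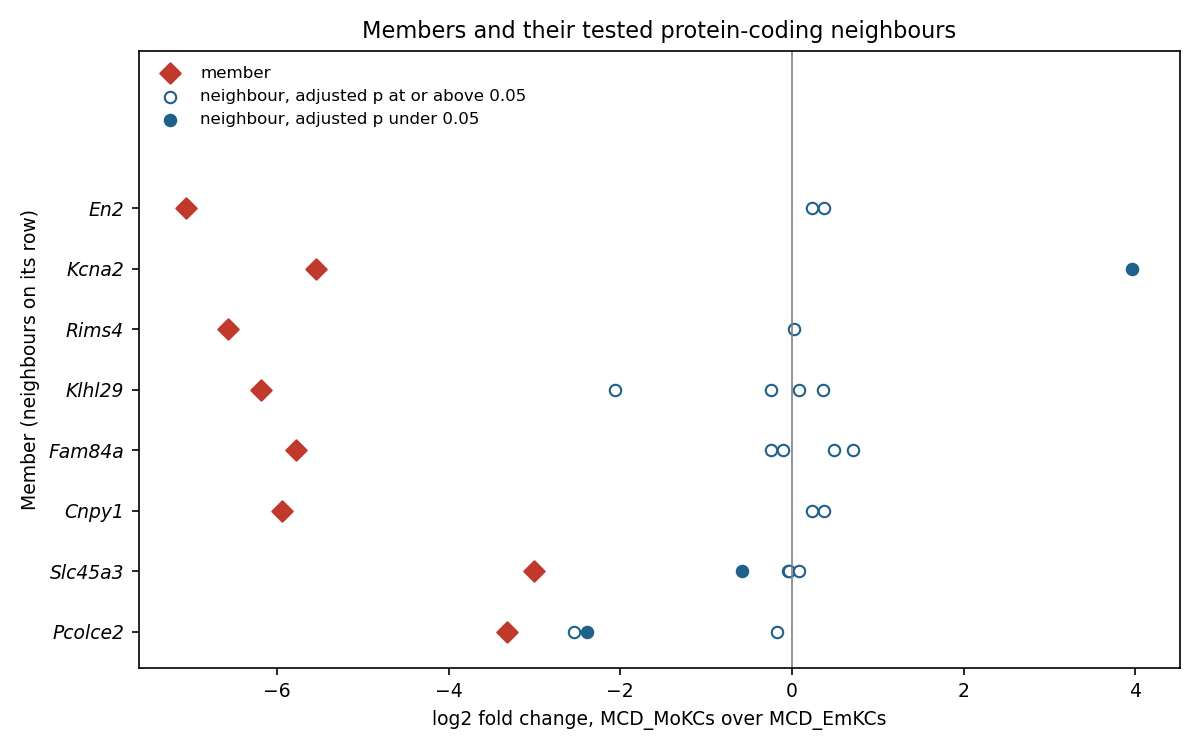
Log2 fold change of MCD_MoKCs over MCD_EmKCs for each of the 8 genes (red diamonds, chosen on this difference and not tested) and for the tested neighbours on its row (blue circles, filled where the limma adjusted p is under 0.05). Most neighbours lie near 0, Kcna3 lies at 3.97 on the Kcna2 row, and Paqr9 lies at −2.39 on the Pcolce2 row.

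Relatives and partners of the 8 genes were taken as lists, with 69 names, 65 of them found in the data and 50 tested. In MCD_MoKCs against MCD_EmKCs, 4 were called higher and 2 lower, where 5.64% of all genes were called higher and 4.9% lower. The median log2 fold change was 0.04 beside 0.02 over all genes. Against Chow_EmKCs, 5 were higher and 4 lower, where 8.68% of all genes were called higher and 8.08% lower. Rims3, the RIM family gene closest in kind to Rims4, was lower, at 630 ± 406 normalised reads in MCD_MoKCs, 2611 ± 539 in MCD_EmKCs and 2180 ± 775 in Chow_EmKCs (log2 fold change −2.26 against MCD_EmKCs, limma adjusted p = 9.50e-06). Rims1 and Rims2 averaged under 16 in all 3 groups. Kcnab2, a beta subunit that joins such potassium channels, was higher, at 577 ± 134 in MCD_MoKCs, 153 ± 83.4 in MCD_EmKCs and 142 ± 25.6 in Chow_EmKCs (log2 fold change 2.37 against MCD_EmKCs, limma adjusted p = 0.00185).

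Tle3, a Groucho-type corepressor of the kind engrailed proteins bind, was also higher, at 331 ± 108 in MCD_MoKCs, 92.3 ± 31.6 in MCD_EmKCs and 135 ± 76.9 in Chow_EmKCs (log2 fold change 1.85 against MCD_EmKCs, limma adjusted p = 0.00416). Tle2, of the same kind, ran the other way, averaging 110 in MCD_MoKCs, 244 in MCD_EmKCs and 434 in Chow_EmKCs. Limma called Tle2 lower against Chow_EmKCs (log2 fold change −2.60, limma adjusted p = 0.0102) but not against MCD_EmKCs (limma adjusted p = 0.0939). Tle1 and Tle4 were called by limma in neither comparison, with log2 fold changes of −0.54 and −1.06 against MCD_EmKCs. Tll2, a tolloid-like proteinase gene of the family that Pcolce2 enhances, was lower, at 2.36 ± 5.83 in MCD_MoKCs, 38.4 ± 22.6 in MCD_EmKCs and 26.4 ± 21.6 in Chow_EmKCs (log2 fold change −4.36 against MCD_EmKCs, limma adjusted p = 0.00117). En1 had no read in any library. Limma called none of the 21 listed kelch-like and cullin ligase genes in MCD_MoKCs against MCD_EmKCs, as did edgeR and DESeq2, with 3 at an unadjusted limma p under 0.05. Against Chow_EmKCs limma called none, edgeR 1 and DESeq2 2 of them, with 2 at an unadjusted p under 0.05. Of the 3 other canopy genes, none was called by limma, edgeR or DESeq2 in MCD_MoKCs against MCD_EmKCs, with 0 at an unadjusted p under 0.05. Against Chow_EmKCs limma and edgeR called none and DESeq2 1 of these canopy genes, with 2 at an unadjusted limma p under 0.05. Slc45a4 averaged 1850 in MCD_MoKCs, 2700 in MCD_EmKCs and 2715 in Chow_EmKCs and was not called, nor was Pcolce, at 223, 189 and 181 in the same groups.

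The genes whose profile over the 19 libraries was most like the average profile of the 8 were found with a likeness of 100 for the same profile, among 11925 genes averaging at least 50 normalised reads. Kcp led with 90.2, at 82.4 normalised reads in MCD_MoKCs, 986 in MCD_EmKCs and 1177 in Chow_EmKCs. Kcnj16, a potassium channel gene, followed with 89.5, at 113 in MCD_MoKCs, 1657 in MCD_EmKCs and 1750 in Chow_EmKCs. Leaving out predicted genes, next came Clec4f with 87.5, Ksr2 with 86.5, Abcd4 with 86.4, Slc1a3 and C6 with 86.2 each, and Angptl7 with 85.9. Ksr2 and Abcd4 were retained more than any of the 8 in MCD_MoKCs, at 30.3% and 29.4% of the MCD_EmKCs mean. Of the 8 themselves, Slc45a3 reached 86.1 and Kcna2 85.5, and Rims4 was least like the average, at 66.4. The likeness is a description, since the average was made from genes chosen on these libraries.

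Marker lists of other cells were read in the same libraries. Over all genes, limma called 5.64% higher and 4.9% lower in MCD_MoKCs against MCD_EmKCs. Against Chow_EmKCs it called 8.68% higher and 8.08% lower in MCD_MoKCs. In MCD_EmKCs against Chow_EmKCs it called 4.08% in either direction. Since several of the 8 are known from neurons or neural development, 10 genes of neurons and Schwann cells were included, and 9 of them averaged under 10 in MCD_MoKCs, 9 in MCD_EmKCs and 8 in Chow_EmKCs, with Nefl, named after its values were seen, at 0 in all 12 EmKC libraries. The exception in all groups was Rbfox3, which averaged 149 in MCD_MoKCs, 609 in MCD_EmKCs and 538 in Chow_EmKCs and was called lower in MCD_MoKCs against both. The list's sum ran from 36.6 to 380 in MCD_MoKCs, 382 to 956 in MCD_EmKCs and 387 to 758 in Chow_EmKCs. Of 15 Kupffer cell markers, 13 were called lower in MCD_MoKCs against each EmKC group, with a sum of 135335 to 193445 in MCD_MoKCs, 444056 to 499005 in MCD_EmKCs and 480038 to 597047 in Chow_EmKCs. Of 10 monocyte markers, 8 were called higher against MCD_EmKCs, and 7 higher and 1 lower against Chow_EmKCs, with a sum of 7936 to 15334 in MCD_MoKCs, 1660 to 1989 in MCD_EmKCs and 1991 to 3181 in Chow_EmKCs.

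Hepatocyte markers moved with diet, with 6 of 10 called lower in MCD_EmKCs than in Chow_EmKCs and a sum of 499 to 1192 in MCD_MoKCs, 545 to 2564 in MCD_EmKCs and 3603 to 11191 in Chow_EmKCs. In MCD_MoKCs against MCD_EmKCs, limma called 6 of 10 T and NK cell genes higher and 1 of 6 tested B cell genes higher. It called 5 of 10 sinusoidal endothelial genes higher and 2 lower. edgeR and DESeq2 each called 3 of the T and NK cell genes, 7 of the endothelial genes and 0 of the B cell genes. Of 3 tested platelet genes limma called 1 higher, Pf4 (2970 in MCD_MoKCs and 978 in MCD_EmKCs). Of 2 tested cholangiocyte genes it called 1 higher, Spp1 (2741 in MCD_MoKCs and 201 in MCD_EmKCs). No other cholangiocyte gene found averaged above 28.7 in MCD_MoKCs. Limma, edgeR and DESeq2 called none of 7 tested stellate cell and fibroblast genes, with 1 at an unadjusted limma p under 0.05. Mitochondrial genes took 0.432 ± 0.188% of reads in MCD_MoKCs, 0.245 ± 0.0535% in MCD_EmKCs and 0.736 ± 0.211% in Chow_EmKCs. The part of other cells or of RNA quality in the levels of the 8 genes was not tested.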

How the data were processed

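RNA of sorted Kupffer cells was amplified by Smart-seq, per the labels' protocols, and STAR, DESeq2 and the build mm10 are listed in the submitters' processing notes. The deposited signal values, made by the authors, are reads divided by 1 size factor per library. Division of each library by its smallest nonzero value returned whole reads for 100% of values within 0.001 reads. Symbols matched 29062 of 33919 rows.

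The main test was limma 3.58.1 (R 4.3.3) with trend and robust variances on log2(value + 1), two-sided, over the 14875 genes with at least 10 normalised reads in at least 6 libraries, with all 19 libraries in 1 fit and Benjamini-Hochberg adjustment over all genes tested. Alternatives used a pseudocount of 10, no filter, TMM scaling, edgeR 4.0.16 and DESeq2 1.42.0 on the recovered reads, library sets, a replicate block, and each library left out. edgeR called 554, 1325 and 2086 genes in MCD_EmKCs against Chow_EmKCs, MCD_MoKCs against MCD_EmKCs and MCD_MoKCs against Chow_EmKCs. The fit was tested on simulated data.

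The 8 genes and all gene lists were chosen with earlier results of these data known. The genes named besides are the sort genes and Clec4f, the nearest 2 protein-coding neighbours on each side, up to 6 relatives per gene and at most 3 genes of a marker list by smallest adjusted p (of these, Rbfox3, Pf4 and Spp1 are named), and the 8 genes most alike in profile, predicted genes left out. For the likeness each gene was written as percent of its sum over the libraries, and the summed absolute difference from the average of the 8, divided by 2, was taken from 100. Counts of overlapping genes were taken as deposited.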

Additional observations from a re-analysis of the deposited data

Results flagged for a closer look

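In 6 of 24 groups of libraries examined, 3 groups for each of the 8 genes, the highest library lay apart from the rest by Dixon's criterion. Its rate by chance, about 1 in 20 groups, holds for normally distributed values, and 5 of the 6 groups are MCD_MoKCs, with values near 0 that the genes were chosen on, so the number of such groups is not read against that rate. Kcna2 was 127 normalised reads in MCD_MoKCs 4, with the next library of that group at 27.0. Klhl29 was 92.1 in the same library, with the next at 3.32. Rims4 was 67.8 in MCD_MoKCs 3, with the next at 6.65. Fam84a was 166 in MCD_MoKCs 6, with the next at 21.6. Cnpy1 was 18.3 in MCD_MoKCs 1, with the others at 0. Klhl29 was 489 in Chow_EmKCs 1, with the next at 261.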

How the results depend on the processing

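Of 652 recomputed values, 631 were labelled as unchanged, by lenient rules. A count of genes had to stay near the main count, and a diet difference had to keep its direction and its side of the threshold. A percent had to move by less than the SD between MCD_MoKCs libraries. That SD exceeds the mean for the rarer genes, so Klhl29 at 5.19%, or 0.443% without MCD_MoKCs 4, counted as unchanged. Leaving out an MCD_MoKCs library could not alter the direction of a diet difference. Analysed by library number, up to 33 and then from 37, the genes called were 179 and 263 in MCD_EmKCs against Chow_EmKCs (607 with all libraries), 870 and 565 in MCD_MoKCs against MCD_EmKCs (1568), and 1257 and 1288 in MCD_MoKCs against Chow_EmKCs (2493), with fewer libraries in each fit. Leaving out each library in turn gave 468 to 620, 1288 to 1596 and 2193 to 2590 genes in the same order, 0 of the 8 genes called for diet, and a summed level in MCD_MoKCs of 8.44% to 9.65% of MCD_EmKCs and 9.30% to 10.6% of Chow_EmKCs. No alternative run called any of the 8 genes for diet. The log2 difference between diets changed sign for Kcna2 (0.27 up to 33), Rims4 (0.39 with edgeR, 0.40 with DESeq2, 0.95 up to 33, −0.96 to 0.24 with a library left out), Klhl29 (−0.18 from 37, −0.25 to 0.25 with a library left out) and Pcolce2 (0.19 from 37), and the cause was not tested. For En2 the level in MCD_MoKCs was 8.87% of MCD_EmKCs and 11.2% of Chow_EmKCs from 37, and for Slc45a3 it was 20.1% of Chow_EmKCs up to 33. Libraries with the same replicate number did not deviate together, with correlations of −0.0743 to 0.0759, and with a replicate block 608, 1658 and 2474 genes were called. DESeq2 called 904, 1846 and 2588 genes. The depth limits Cnpy1 most, whose value in MCD_MoKCs rests on 11 reads.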
